A study of Homo sapiens with 6 samples.

Results

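Transcripts of 56 genes of DNA repair were followed in HL-60 cells given amiodarone. The genes were taken from a fixed list of symbols, chosen with earlier results of these data known. Each of the 56 had a row among the 17911 genes of the deposited table. They fall into 15 genes of homologous recombination, 11 of the Fanconi pathway, 3 of mismatch repair, 11 of base excision, 7 of nucleotide excision, 5 of end joining and 4 of damage signalling. HL-60 is an established human promyelocytic leukaemia line grown from 1 patient, so all libraries share a single genome. Amiodarone is an iodinated benzofuran given against cardiac arrhythmia, which acts on several ion channels. RNA sequencing libraries came from 3 samples labelled control and 3 samples of cells held with 10 uM amiodarone for 24 h. Whether the controls received a vehicle is not stated, and the libraries are not said to be separate cultures. The p-values therefore measure the spread between these samples, which may be technical. No DNA damage, repair activity or protein was measured.

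Cells remove different lesions with different enzymes. Homologous recombination and the Fanconi pathway rebuild broken or crosslinked DNA from the sister copy and are used mainly while DNA is being replicated. Mismatch repair corrects copying errors, base excision removes single damaged bases, and nucleotide excision cuts out bulky lesions. End joining ligates broken ends without a template and works throughout the cell cycle. The kinases ATM and ATR sense breaks and stalled forks and act through CHEK2 and CHEK1. Many genes of recombination and crosslink repair are known to be transcribed more in late G1 and S phase, in part through E2F factors.

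The deposit names no unit, and the values were taken to be on an RPKM-like scale, that is, adjusted for gene length and library depth. Statements that 1 gene was more abundant than another rest on that reading, which the files do not settle. A gene was tested where at least 3 libraries had a value of at least 1. Of the 56 repair genes 54 were tested, each with a value of at least 1 in libraries of both groups. FANCB and FANCF were under the filter. Log2 fold changes are differences of log2(value + 1), which understates the change of low genes. The steps between low values put the depth at roughly 16400000 to 18400000 reads per library, if the unit is RPKM. The estimate is weak, since at the best step only 40.1% to 53.6% of those values lay within 0.15 of a whole read. Pearson correlations of log2 values were 0.9975 to 0.9982 within a group and 0.959 to 0.960 between groups over the 11445 tested genes. Over the tested repair genes the coefficient of variation between libraries had a median of 2.82% in controls and 5.2% after amiodarone. The promyelocyte label was checked with 9 markers, all tested, whose summed values were 7401 to 7528 in controls and 3620 to 3727 after amiodarone, with 6 lower and 2 higher. Among them was MPO, the myeloperoxidase gene, at 5960 ± 43.7 and 2610 ± 28.4. Summed lymphocyte markers were 152 to 158 in controls and 203 to 213 after amiodarone, of which NKG7, a granule gene also seen in myeloid cells, made up 126 ± 2.57 and 175 ± 4.73. Summed values of listed erythroid and megakaryocyte markers were 2.93 to 3.54 in controls and 2.08 to 2.94 after amiodarone, and those of fibroblast and epithelial markers 3.11 to 3.19 and 2.19 to 2.93.

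Most of the listed repair genes had lower transcript levels after amiodarone. By limma on log2(value + 1), with p-values adjusted by Benjamini-Hochberg across the 11445 genes, 42 of the 54 tested were lower, 4 were higher and 8 were not called at an adjusted p under 0.05. Over all tested genes 44.8% were called lower, 33.5% higher and 78.3% in either direction, so a call in itself is common in these data. Of 149 other repair genes tested, described below, 55.7% were lower and 19.5% higher. All lists were chosen with earlier results of these data known, so the counts describe the listed genes and not repair genes at large. The median log2 fold change was -0.44 in the repair genes and -0.06 over all tested genes. On the same scale 12 repair genes were lower by at least 2-fold and none was higher by as much, where 2.60% and 2.55% of all tested genes were. The 3 amiodarone values lay below all 3 control values in 42 of the 54 genes and above them in 5, against 45.3% and 34.0% of all tested genes. Summed over the 56 genes, the values were 1423 to 1427 in the controls and 973 to 987 after amiodarone.

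**Figure D1:**
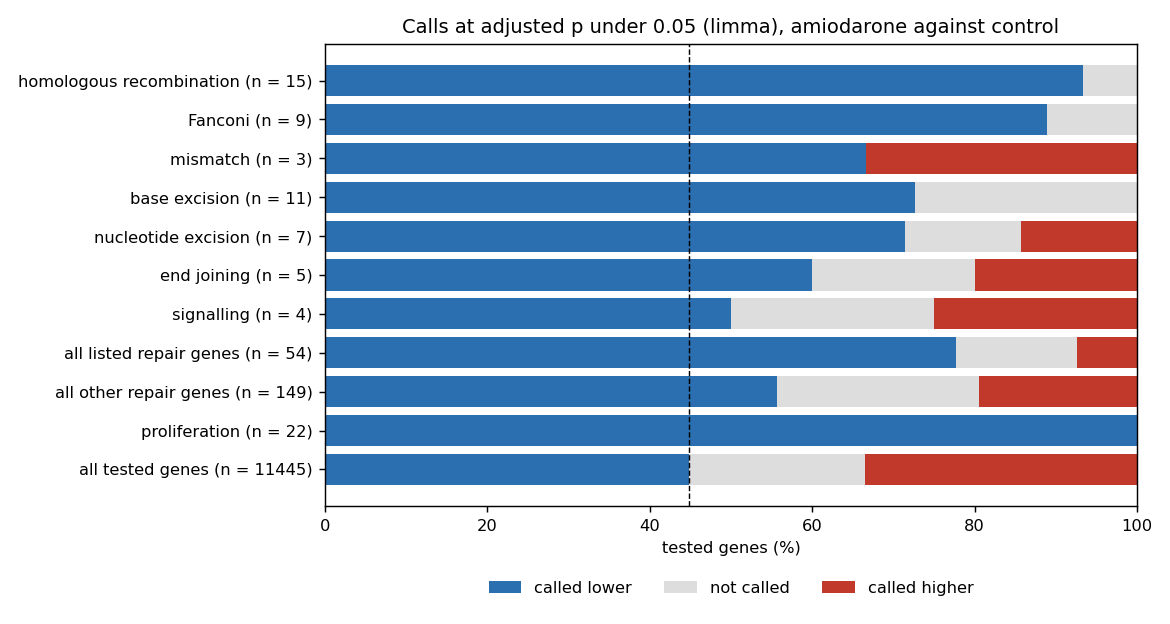
Share of tested genes called lower (blue), not called (grey) or called higher (red) after amiodarone at an adjusted p under 0.05 (limma), for each repair group, all 54 tested repair genes, 149 other repair genes, 22 proliferation genes and all 11445 tested genes. The dashed line marks the 44.8% of all genes called lower; recombination reaches 93.3%, while signalling, at 2 of 4 genes, lies near the line and mismatch rests on 3 genes.

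Genes of cell proliferation moved in the same direction. Each of 22 listed genes of DNA replication and mitosis fell (median log2 fold change -1.44), and their summed values went from 1241 to 1249 in controls to 454 to 458 after amiodarone. The replication clamp gene PCNA, with 205, 204 and 194 in the controls and 55.6, 55.1 and 55.3 after amiodarone, and the helicase gene MCM4 had the smallest adjusted p of that list. The part of the proliferation change in the repair genes was not tested, and in a bulk sample fewer cells in S phase and less RNA per cell cannot be told apart.

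Promoter windows of the repair genes were searched for letters known from promoters of cell cycle genes. Whether such letters bear on the changes was not tested. Shown are the promoters of 6 that fell and of ATM, which rose. The 6 are the called genes with the largest change among those that hold an E2F-type match, as listed below. ATM was added as the largest rise, with or without a match, so these windows cannot compare falling with rising genes. UNG, RAD54L, FANCA, FANCG, FANCL, XRCC3 and CHEK1 fell by at least 2-fold on log2(value + 1) and hold none. BRCA2, at 46.4% of control but -0.66 on that scale, holds none either. The windows are RefSeq sequences of GRCh38.p14, from 250 bases before to 50 bases after a transcript start, written 5′ to 3′ on the strand of the gene. Capitals mark E2F-type letters, that is TTTGGCGC, TTTCCCGC, TTTGGCGG, TTTCCCGG or TTTCGCGC on either strand. None of these words contains another or a CCAAT or CHR-type word.
EXO1 (chr1:241847954-241848253, plus strand): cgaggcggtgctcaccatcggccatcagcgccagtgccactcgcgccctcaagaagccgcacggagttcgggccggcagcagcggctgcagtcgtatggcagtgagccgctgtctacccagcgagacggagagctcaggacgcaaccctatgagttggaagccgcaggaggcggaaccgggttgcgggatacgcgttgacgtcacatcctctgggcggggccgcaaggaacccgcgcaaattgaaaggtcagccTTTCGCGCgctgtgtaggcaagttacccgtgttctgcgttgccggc
UBE2T (chr1:202341887-202342186, minus strand): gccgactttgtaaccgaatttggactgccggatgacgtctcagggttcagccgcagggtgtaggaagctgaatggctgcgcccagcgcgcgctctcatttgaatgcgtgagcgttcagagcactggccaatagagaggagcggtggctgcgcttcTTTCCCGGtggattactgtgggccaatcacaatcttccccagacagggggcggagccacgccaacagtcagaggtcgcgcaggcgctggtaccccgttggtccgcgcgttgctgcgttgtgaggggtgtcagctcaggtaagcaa
FANCD2 (chr3:10026187-10026486, plus strand): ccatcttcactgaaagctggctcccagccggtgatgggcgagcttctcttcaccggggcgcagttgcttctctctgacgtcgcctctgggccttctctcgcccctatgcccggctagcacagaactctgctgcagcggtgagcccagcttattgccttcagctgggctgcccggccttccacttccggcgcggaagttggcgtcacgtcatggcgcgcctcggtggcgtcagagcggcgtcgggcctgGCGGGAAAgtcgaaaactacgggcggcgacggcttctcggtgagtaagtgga
MSH6 (chr2:47782895-47783194, plus strand): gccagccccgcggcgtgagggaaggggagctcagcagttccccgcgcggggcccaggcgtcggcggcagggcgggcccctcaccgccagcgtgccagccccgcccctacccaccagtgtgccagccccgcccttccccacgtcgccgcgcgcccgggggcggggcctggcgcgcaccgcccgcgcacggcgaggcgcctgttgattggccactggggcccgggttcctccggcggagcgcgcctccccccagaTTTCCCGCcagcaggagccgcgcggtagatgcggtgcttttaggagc
PARP1 (chr1:226408044-226408343, minus strand): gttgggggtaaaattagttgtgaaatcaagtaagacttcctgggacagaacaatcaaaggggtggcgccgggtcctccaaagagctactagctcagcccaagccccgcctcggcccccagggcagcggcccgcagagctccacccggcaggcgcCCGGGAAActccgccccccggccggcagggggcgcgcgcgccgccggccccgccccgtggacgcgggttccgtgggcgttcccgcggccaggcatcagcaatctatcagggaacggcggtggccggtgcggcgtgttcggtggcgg
XPC (chr3:14178552-14178851, minus strand): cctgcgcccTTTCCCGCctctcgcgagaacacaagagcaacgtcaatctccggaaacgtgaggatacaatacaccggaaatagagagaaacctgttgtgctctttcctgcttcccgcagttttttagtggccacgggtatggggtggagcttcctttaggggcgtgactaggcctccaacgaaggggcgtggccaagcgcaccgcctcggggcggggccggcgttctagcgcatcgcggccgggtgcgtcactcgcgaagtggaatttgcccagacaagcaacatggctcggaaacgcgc
ATM (chr11:108222817-108223116, plus strand): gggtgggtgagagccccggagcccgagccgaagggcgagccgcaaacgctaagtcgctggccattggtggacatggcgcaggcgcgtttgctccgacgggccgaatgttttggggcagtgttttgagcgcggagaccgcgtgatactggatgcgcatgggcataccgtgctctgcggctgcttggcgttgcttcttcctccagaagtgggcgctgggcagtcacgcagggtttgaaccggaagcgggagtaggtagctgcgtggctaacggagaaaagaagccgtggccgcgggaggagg
FANCI, POLB, PRKDC, RAD54B, WRN and XRCC5 were not analysed here for promoter letters.
The E2F-type match lay 4 bases after the start in EXO1, 3 bases after it in MSH6 and 2 bases before it in FANCD2, counted from the first base of the match. In UBE2T it began 95 bases, in PARP1 96 bases and in XPC 241 bases before the start. ATM has none in this window. The UBE2T window also holds CCAAT at 2 places and TTTGAA, letters of the CHR element, once. The ATM window has each of these once on 1 of its strands, and the MSH6 window has CCAAT once, on the opposite strand.

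Of the 48 tested repair genes with a window in the table, 12 (25.0%) hold an E2F-type word in at least 1 window, against 959 of 9354 tested genes (10.3%). The share was 4 of 11 (36.4%) among the genes lower by at least 2-fold and 8 of 37 (21.6%) among the others. MSH3, which rose, and ATR, which was not called, are among the 12. CCAAT on either strand was in 58.3% of the repair genes and 43.3% of all genes. TTTGAA or TTCGAA was in 22.9% and 15.5%. Among the genes lower by at least 2-fold and the others, CCAAT was in 63.6% and 56.8%, and TTTGAA or TTCGAA in 18.2% and 24.3%. A match of letters is not a bound site, and genes with several starts have more windows.

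Homologous recombination transcripts were mostly lower. 14 of 15 were lower and RAD54B was not called, where 44.8% of all tested genes were lower. The median log2 fold change was -0.66 and the lowest -1.29. Their summed values were 133 to 138 in the controls and 76.6 to 80.5 after amiodarone.

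RAD54L, a motor protein that helps the recombinase strand find its partner, had values of 9.11, 9.11 and 9.90 in the controls and 3.42, 3.16 and 3.13 after amiodarone. All 3 treated libraries were far below the controls, at 34.5% of the control mean (log2 fold change -1.29, SE 0.0559, limma adjusted p = 4.55e-09). The gene lies on chromosome 1 at 46247688 to 46278473 (GENCODE 29, GRCh38, plus strand), and LRRC41 on the other strand covers 25.1% of its exonic bases. LRRC41 itself changed little and upward (log2 fold change 0.11). EXO1, an exonuclease that resects broken ends and also serves mismatch repair, had 5.86, 6.20 and 5.51 in the controls and 1.68, 2.04 and 1.75 after amiodarone. Its groups were as clearly apart, at 31.1% of the control mean (log2 fold change -1.28, adjusted p = 2.47e-08). XRCC3, a recombinase paralog that acts with RAD51C, had 21.7, 20.9 and 21.0 against 9.75, 9.26 and 8.81. It fell to 43.8% of control, but 76.7% of its exonic bases lie opposite KLC1, whose own log2 fold change was -0.16. RAD51AP1, which stimulates strand pairing, had 11.3, 10.9 and 11.2 in the controls and 5.17, 6.09 and 5.61 with the drug, a fall to 50.6%.

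The BRCA genes, which load the recombinase onto resected DNA, fell as well. BRCA1 went from 12.3 ± 0.28 to 6.68 ± 0.0651 and BRCA2 from 2.14 ± 0.0458 to 0.993 ± 0.116. BARD1, the partner of BRCA1, went from 5.26 ± 0.132 to 3.18 ± 0.293. PALB2, the bridge between both BRCA proteins, fell to 72.1% of control and the helicase gene BRIP1 to 77.9%. The recombinase paralogs RAD51C, RAD51D and XRCC2 fell to 60.3%, 66.9% and 59.1%. Of the RecQ helicase genes, BLM fell to 7.75 ± 0.0265, 70.6% of control. WRN fell least of the 14, from 7.01 ± 0.0814 to 6.24 ± 0.356 (adjusted p = 0.0229), and its call ended without control replicate 2 (adjusted p = 0.0574), control replicate 3 (0.0613), amiodarone replicate 1 (0.056) or amiodarone replicate 2 (0.0813), and under 2 other scalings. RAD54B, a relative of RAD54L, had 1.44, 1.29 and 1.29 against 1.12, 1.37 and 1.40, with the groups overlapping (adjusted p = 0.744). A second annotated RAD54B gene covers 87.3% of its exonic bases on the same strand, so reads could be split between them.

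**Figure D2:**
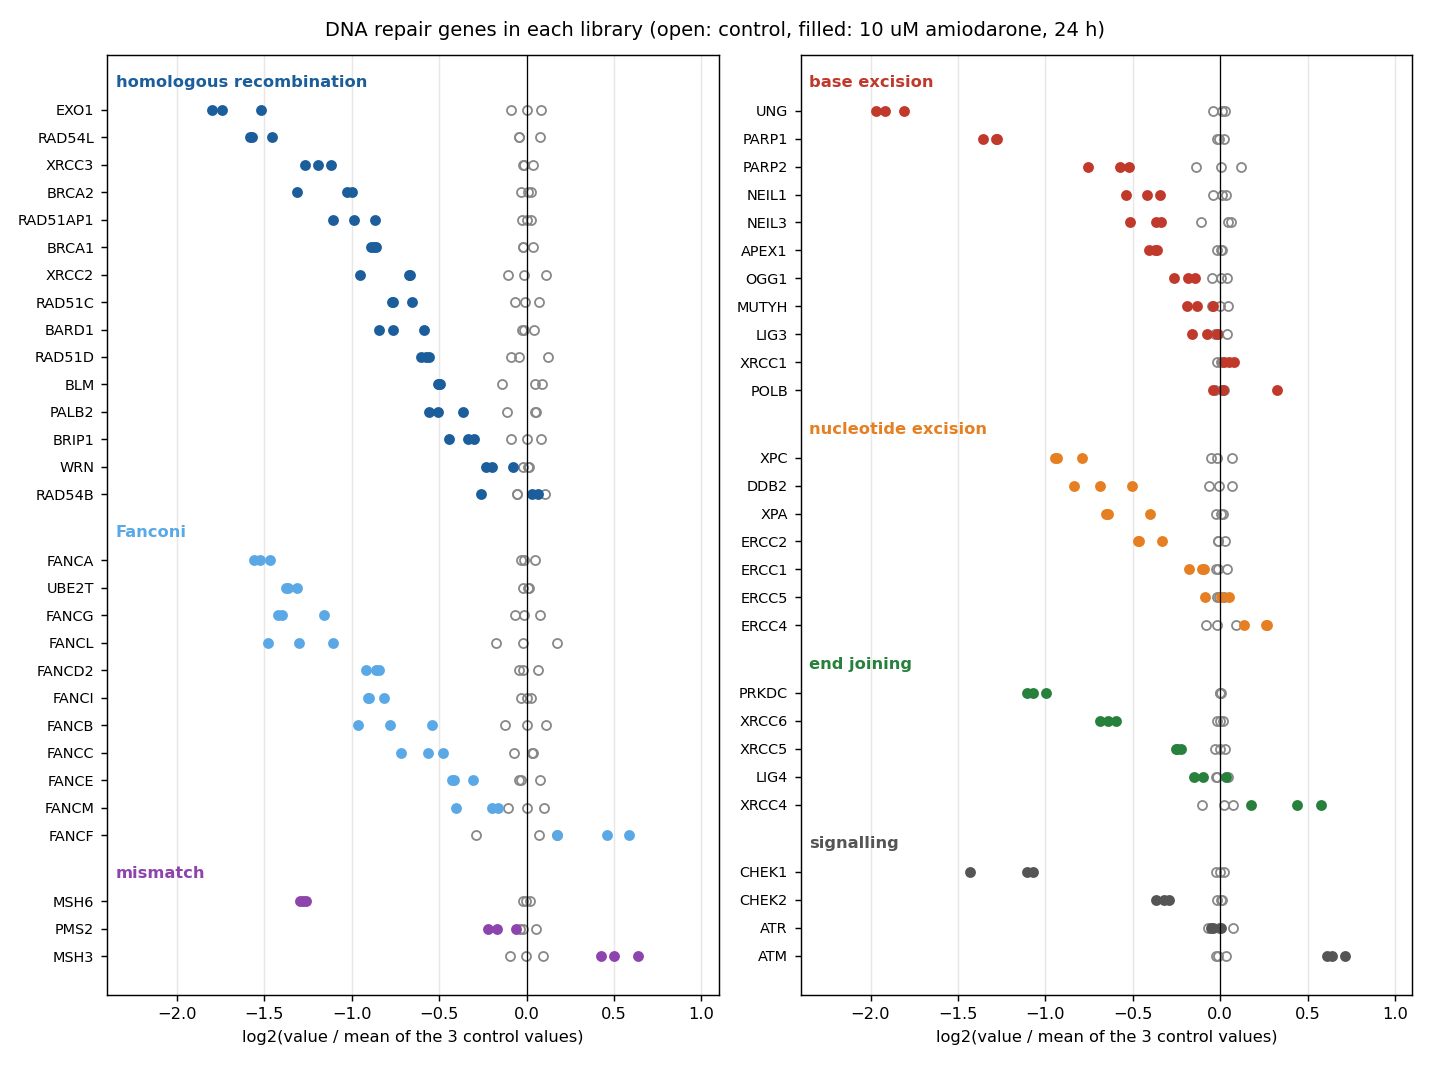
Each of the 56 repair genes in each library, as log2 of the value over the mean of the 3 control values; open circles are control libraries and filled circles amiodarone libraries, with genes ordered within a group by the ratio of means. Filled circles lie left of the controls for most genes, from UNG at 26.9% of control. They lie to the right for ATM, MSH3, XRCC4, ERCC4 and, by little, XRCC1, which was not called.

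In the Fanconi pathway, which unhooks DNA crosslinks, 8 of 9 tested genes fell and FANCM was not called. The group's median was -0.82 on the log2 scale, and 44.8% of all tested genes were called lower. UBE2T, the ubiquitin-conjugating enzyme of the pathway, had values of 36.4, 36.4 and 35.5 in the controls and 13.9, 14.0 and 14.5 after amiodarone. It had the highest level of the group and fell to 39.2% of control (log2 fold change -1.29, SE 0.0341, limma adjusted p = 1.13e-10). FANCL, the ubiquitin ligase that works with UBE2T, had 10.3, 9.21 and 11.8 in the controls and 4.83, 4.22 and 3.73 after the drug. Its controls varied most of the tested repair genes, by 12.3%, yet each lay above each treated library. VRK2, on the other strand over 18.7% of its exonic bases, was not called (log2 fold change 0.07).

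Of the core complex that carries FANCL, FANCA had 9.39, 9.52 and 9.93 against 3.26, 3.34 and 3.48, a fall to 35.0%. Its exons lie opposite ZNF276 over 23.6% of their bases, and ZNF276 rose (log2 fold change 0.22). FANCG had 14.95, 16.5 and 15.5 against 7.01, 5.83 and 5.93 and fell to 40.0%. The core genes FANCC (3.34 ± 0.142 to 2.23 ± 0.187) and FANCE (12.9 ± 0.602 to 9.92 ± 0.467) fell less. FANCD2 and FANCI, the pair of proteins that the ligase modifies, fell alike, to 54.5% and 54.6% of control. FANCM, the DNA translocase that anchors the complex, had 1.39 ± 0.1 and 1.17 ± 0.102 (adjusted p = 0.0967), and passed the test with scaling to equal sums (0.0317), quantile normalization (0.0148) or without a variance trend (0.0314). Under the filter, FANCB values were 0.86, 0.79 and 0.93 in the controls and 0.50, 0.59 and 0.44 after amiodarone. FANCF values, 0.68, 0.73 and 0.53 against 0.89, 0.97 and 0.73, overlapped.

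The 3 mismatch repair genes went different ways, with 2 lower, 1 higher and a median of -0.14 on the log2 scale. Shares over all tested genes were 44.8% lower and 33.5% higher, and 3 genes are too few to set against them. MSH6, which serves to recognise single mispaired bases, had values of 43.3, 42.1 and 42.7 in the controls and 17.8, 17.3 and 17.6 after amiodarone. The groups were far apart, at 41.2% of the control mean (log2 fold change -1.23, SE 0.0316, limma adjusted p = 9.32e-11). FBXO11, on the other strand over 16.2% of its exonic bases, was not called (log2 fold change 0.05). MSH3, which replaces MSH6 in the complex that recognises longer loops, had 2.54, 2.39 and 2.72 in the controls and 3.61, 3.43 and 3.97 after amiodarone. Each treated library was above each control, a 1.44-fold rise (log2 fold change 0.39, adjusted p = 2.49e-04). PMS2, a subunit of the nicking complex, went from 14.7 ± 0.505 to 13.2 ± 0.748 and was lower at an adjusted p of 0.0205. That call ended without control replicate 3 (adjusted p = 0.0832), amiodarone replicate 1 (0.0721) or amiodarone replicate 2 (0.0563), and under the median of ratios and quantile normalization. PMS2 also has near-identical pseudogene copies.

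Within a library the ratio of MSH6 to MSH3, which no scaling factor of a library can alter, was 17.0, 17.6 and 15.7 in the controls and 4.93, 5.06 and 4.43 after amiodarone. MSH6 thus stayed the more abundant transcript, with a ratio 3.49-fold smaller. An exact two-sided permutation test of 3 against 3 libraries cannot give less than 0.1, so ratios are given without a test, and their pairs were chosen after the values were seen.

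Most base excision genes were lower. 8 of 11 fell and 3 were not called, and the median was -0.35 on the log2 scale. By the same test 44.8% of all tested genes were lower. UNG, the uracil DNA glycosylase, changed most of all the repair genes, with 48.6, 48.0 and 46.2 in the controls and 12.6, 13.6 and 12.2 after amiodarone. It came to 26.9% of control (log2 fold change -1.82, SE 0.0428, limma adjusted p = 4.86e-11), the 13th lowest log2 fold change of the 11445 tested genes. UNG lies on chromosome 12 at 109097574 to 109110992 on the plus strand (GENCODE 29, GRCh38). The other glycosylase genes fell less. OGG1, which removes oxidised guanine, went from 18.8 ± 0.57 to 16.4 ± 0.669, in a gene opposite CAMK1 over 25.0% of its exonic bases. NEIL1, opposite MAN2C1 over 26.4%, fell to 74.2%. NEIL3, which also unhooks crosslinks, had 15.4, 17.2 and 17.4 against 11.7, 13.2 and 12.9. MUTYH, which removes adenine paired with oxidised guanine, had 15.9 ± 0.52 and 14.7 ± 0.763, with groups that overlap (adjusted p = 0.044). Its call ended without control replicate 1 (adjusted p = 0.141), control replicate 2 (0.0897), amiodarone replicate 2 (0.159) or amiodarone replicate 3 (0.0917), under the median of ratios and quantile normalization, without a filter and without a variance trend.

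APEX1, the endonuclease that cuts at the bare sugar, was the most abundant of the repair genes. Its values were 303, 299 and 304 in the controls and 233, 235 and 228 after amiodarone, 76.9% of control. PARP1, which senses nicks, had 74.1, 75.5 and 73.4 in the controls and 29.04, 30.7 and 30.5 after amiodarone. It fell to 40.5% (log2 fold change -1.28, adjusted p = 6.40e-11), and PARP2, its smaller relative, with 13.2, 14.3 and 11.99 against 8.88, 7.82 and 9.18, to 65.4%.

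The 3 genes not called serve gap filling and sealing. XRCC1, the scaffold of single-strand break repair, had 38.5 ± 0.388 and 39.8 ± 0.75, with each treated library above each control. LIG3, the ligase it carries, had 11.8 ± 0.304 and 11.2 ± 0.544. XRCC1 passed as higher after scaling by the median of ratios (adjusted p = 0.0196) or quantile normalization (3.12e-04), and LIG3 as lower with scaling to equal sums (0.00789). An annotated antisense RNA covers 15.5% of the exonic bases of XRCC1. LIG3 exons lie opposite RFFL, which rose, over 29.1% of their bases. POLB, the gap-filling polymerase, had 13.6, 14.0 and 14.0 in the controls and 13.5, 14.0 and 17.3 after amiodarone. Only amiodarone replicate 3 stood above the controls, and without it the log2 fold change was -0.011.

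**Figure D3:**
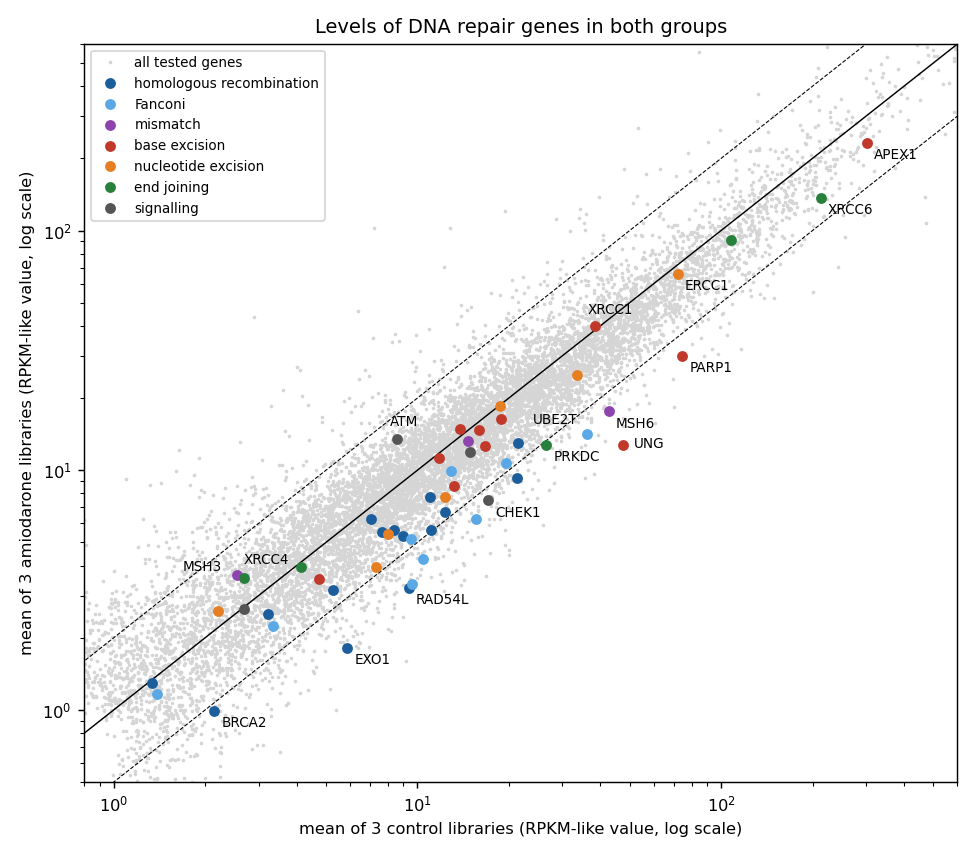
Mean value of each tested repair gene in the 3 amiodarone libraries against the mean in the 3 control libraries, both on log axes, coloured by group over all tested genes in grey. The solid line marks equal values and the dashed lines a 2-fold difference; UNG, PARP1, MSH6, UBE2T and EXO1 lie beyond the lower dashed line, while APEX1, the most abundant, lies within it.

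Of the 7 nucleotide excision genes 5 were lower, 1 was higher and 1 was not called. All tested genes had shares of 44.8% lower and 33.5% higher. Their median was -0.41 on the log2 scale and none was past 2-fold. XPC, the sensor of helix distortion, had 7.18, 7.62 and 7.03 in the controls and 3.81, 4.20 and 3.78 after amiodarone. The groups were apart, at 54.0% (log2 fold change -0.75, limma adjusted p = 4.12e-07), and an annotated antisense RNA covers 23.8% of its exonic bases. DDB2, which finds ultraviolet lesions for XPC, had 12.2, 12.9 and 11.8 against 6.90, 7.64 and 8.70, or 62.9%. XPA, which checks the lesion, had 8.04, 8.11 and 7.90 against 5.10, 6.06 and 5.13. ERCC2, a helicase of TFIIH, had 33.3, 34.1 and 33.2 against 26.6, 24.3 and 24.2.

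ERCC1, the most abundant of this group, went from 72.0 ± 1.62 to 66.0 ± 2.14 and was called lower (adjusted p = 0.00424), but its log2 fold change was 0.021 with quantile normalization. CD3EAP lies opposite 28.6% of its exonic bases and fell. ERCC4, the partner of ERCC1 in the cut on the 5′ side, had 2.18, 2.09 and 2.35 in the controls and 2.65, 2.66 and 2.43 after amiodarone, a 1.17-fold rise at an adjusted p of 0.0423. An annotated antisense RNA covers 25.7% of its exonic bases. The call of ERCC4 ended with the replicate number as a block (0.0713), without control replicate 1 (0.0951), control replicate 2 (0.135), amiodarone replicate 1 (0.103) or amiodarone replicate 2 (0.112), with scaling to equal sums or quantile normalization, and without a filter. ERCC5, the nuclease on the 3′ side, had 18.7 ± 0.284 and 18.6 ± 0.873 (adjusted p = 0.851), and it shares 63.2% of its exonic bases with the readthrough gene BIVM-ERCC5.

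Of the 5 end joining genes, 3 were lower, 1 was higher and 1 was not called. With 44.8% of all tested genes lower and 33.5% higher, counts of 5 genes do not set this group apart. Their median was -0.24 on the log2 scale. PRKDC, the kinase that joins the Ku dimer on broken ends, had 26.6, 26.4 and 26.4 in the controls and 12.3, 12.6 and 13.3 after amiodarone. It fell to 48.1% (log2 fold change -1.0, SE 0.0381, limma adjusted p = 1.85e-09). The Ku subunit XRCC6 had 213, 215 and 211 against 132, 137 and 141, and the other, XRCC5, 110, 108 and 105 against 90.8, 90.4 and 92.1. Both were clear of the controls, at 64.1% and 84.6%. XRCC4, the scaffold of the ligase, had 2.49, 2.72 and 2.82 in the controls and 4.0, 3.02 and 3.63 after amiodarone. It rose 1.33-fold (adjusted p = 0.00595), whereas LIG4, the ligase itself, had 4.15 ± 0.107 and 3.96 ± 0.264 (adjusted p = 0.408).

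The 4 signalling genes went different ways, with 2 lower, 1 higher, 1 not called and a median of -0.16 on the log2 scale. These counts are near the shares over all tested genes, 44.8% lower and 33.5% higher. ATM, activated by double-strand breaks, had values of 8.48, 8.43 and 8.75 in the controls and 13.1, 13.3 and 14.0 after amiodarone. Each treated library was well above the controls, and the 1.58-fold rise was the largest of the tested repair genes (log2 fold change 0.60, SE 0.044, limma adjusted p = 3.03e-07). ATM lies on chromosome 11 at 108222484 to 108369102 on the plus strand (GENCODE 29, GRCh38). ATR, which answers stalled forks, had 2.56, 2.67 and 2.82 against 2.59, 2.61 and 2.69, with overlapping groups (adjusted p = 0.766), and a pseudogene lies opposite 16.4% of its exonic bases. CHEK1, the kinase downstream of ATR, had 17.1, 17.3 and 16.9 against 6.35, 7.94 and 8.14 and fell to 43.7% (log2 fold change -1.10). CHEK2, the kinase downstream of ATM, had 14.71, 15.03 and 14.98 against 11.5, 12.2 and 11.9 and fell to 79.6%. CHEK2 and FANCD2 have pseudogene copies that could share reads.

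Ratios of partner genes within a library do not depend on a scaling factor. The ratio of ATM to ATR was 3.31, 3.16 and 3.10 in the controls and 5.05, 5.10 and 5.22 after amiodarone. CHEK1 to CHEK2 went from 1.16, 1.15 and 1.12 to 0.55, 0.653 and 0.683, so that the more abundant of the checkpoint kinase transcripts was CHEK1 in each control and CHEK2 in each treated library. PARP1 to PARP2 went from 5.66 ± 0.431 to 3.51 ± 0.364 and XRCC6 to XRCC5 from 1.98 ± 0.0337 to 1.5 ± 0.0376. PRKDC to XRCC5 went from 0.246 ± 0.0044 to 0.14 ± 0.00421. In these 5 pairs, as in MSH6 to MSH3, the groups did not overlap. FANCI to FANCD2 was 1.98, 2.17 and 2.05 against 2.00, 2.09 and 2.11, and BRCA1 to BARD1 2.33 ± 0.101 against 2.11 ± 0.177, with overlap in both pairs. These 8 pairs come from 12 that were computed. In the others, XRCC4 to LIG4, XRCC1 to LIG3, UNG to OGG1 and XPC to ERCC1, the groups were also apart. No share was computed for pairs of other genes. Of single tested genes 45.3% lay fully below and 34.0% fully above their controls, so groups that do not overlap are common here.

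**Figure D4:**
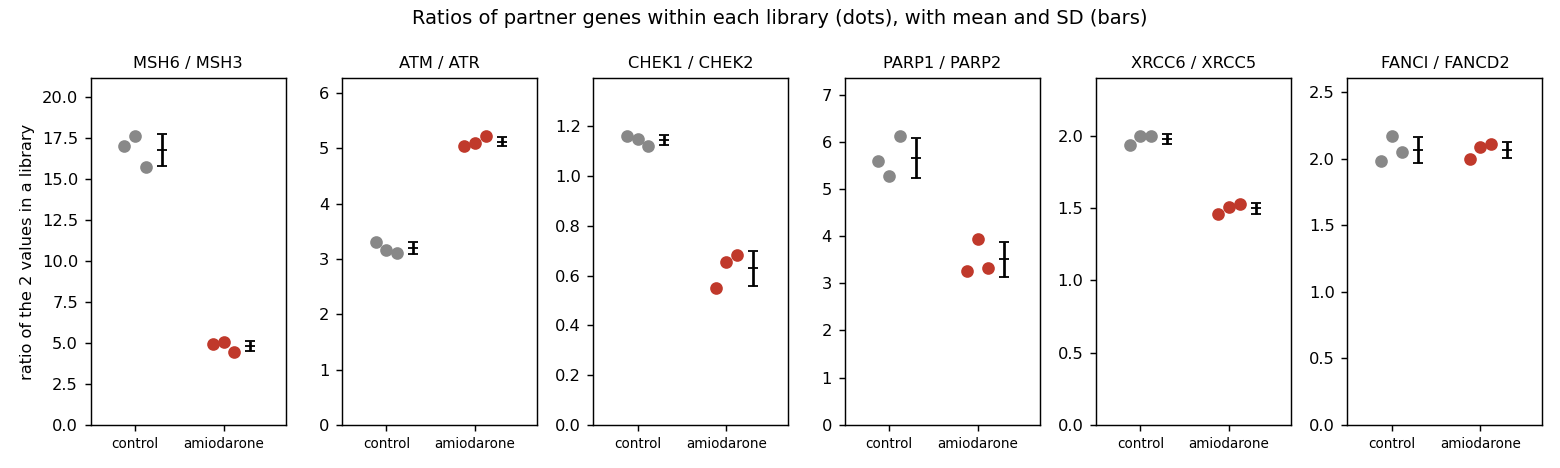
Ratio of the values of 2 partner genes in each library (dots; grey control, red amiodarone), with the mean and SD over 3 libraries (bars), on axes from 0. The groups are apart for MSH6/MSH3, ATM/ATR, CHEK1/CHEK2, PARP1/PARP2 and XRCC6/XRCC5 and overlap for FANCI/FANCD2.

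Further genes of repair were taken from lists made by textbook role. Of 149 tested genes in 7 additional lists 83 (55.7%) were lower, 29 (19.5%) higher and 37 not called (median -0.19 on the log2 scale), beside 44.8% and 33.5% over all tested genes. In recombination and crosslink repair 33 of 51 were lower and 9 higher. SLX1A and SLX1B, both counted as lower here and in the 83, have identical values in every library and are not separate measurements. RMI2, a partner of BLM, fell from 19.5 ± 0.975 to 4.87 ± 0.374, RFWD3, a ubiquitin ligase of fork repair, to 51.4% and the helicase gene RECQL4 to 33.1%. In the other direction NBN, a subunit of the complex that senses breaks and activates ATM, had 5.24, 5.85 and 6.15 in the controls and 19.4, 19.1 and 19.7 after amiodarone. Its 3.37-fold rise (log2 fold change 1.60, adjusted p = 7.00e-10) was the only one of at least 2-fold on log2(value + 1) among the 149. Of 20 further signalling genes 15 fell and 3 rose. They include the histone gene H2AFX (57.9 ± 3.27 to 19.1 ± 0.877), the phosphatase gene CDC25A (11.1 ± 0.361 to 3.58 ± 0.168) and TTI1, a stabiliser of ATM-type kinases, while HUS1, a subunit of the checkpoint clamp, rose 1.52-fold.

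The counts that follow are to be read beside 44.8% lower and 33.5% higher over all tested genes. Other base excision and nick repair genes numbered 11 lower and 3 higher of 18. The flap endonuclease gene FEN1 fell to 25.3% of control, LIG1, the ligase of replicating cells, to 40.1% and APEX2 to 59.2%, and the glycosylase gene MPG rose 1.19-fold. In nucleotide excision 12 of 23 were lower and 5 higher. DDB1, the partner of DDB2, fell to 62.2% and the single-strand binding subunits RPA1 and RPA3 to 55.3% and 49.0%, whereas MNAT1, of the TFIIH kinase, rose 1.41-fold. Further end joining genes were even, with 5 of 15 lower and 4 higher. POLQ, the polymerase of an alternative joining route, fell to 37.3%, DCLRE1B to 55.9% and CYREN to 76.6%, and SHLD1, of the shieldin complex that protects ends, rose 1.28-fold. Of 17 genes of lesion reversal and bypass 5 were lower, among them UBE2A (75.4%) and ALKBH2 (69.6%), and 4 higher, among them the bypass polymerase gene POLK (1.89-fold). Of 5 further mismatch genes 2 fell and 1 rose, SETD2, a histone methyltransferase gene, by 1.26-fold.

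Several repair genes start beside a coding gene on the other strand. By the principal transcripts of GENCODE 29, 19 pairs with starts within 1000 bp were analysed, and in 14 of them both genes were tested. Both genes were called in 10 pairs, of which 7 fell together and 3 went opposite ways. Over all tested genes 44.8% were called lower and 33.5% higher, and no such share was computed for pairs of other genes. The starts of XPC and LSM3, and of MUTYH and TOE1, lie past each other, so those pairs overlap rather than diverge. ATM and NPAT, a regulator of histone genes, start 190 bp apart. NPAT had 4.26, 3.99 and 4.29 against 4.04, 3.88 and 4.0 and was not called (log2 fold change -0.06, limma adjusted p = 0.346) while ATM rose. RAD51AP1 (log2 fold change -0.87) and CHEK2 (-0.31) fell beside neighbours that rose, C12orf4 (0.33) and HSCB (0.40), on the log2 scale used for all these pairs. PRKDC (-1.0) and MCM4 (-1.88), which start 715 bp apart, fell together, as did XRCC6 and DESI1 (-0.43), XPC and LSM3 (-0.57), APEX1 and OSGEP (-0.57), XRCC3 and ZFYVE21 (-0.45), PALB2 and DCTN5 (-0.20), and MUTYH and TOE1 (-0.47). PMS2 (-0.14) was called lower and AIMP2 (0.12) higher. In the remaining 3 pairs 1 gene was called: XRCC4 (0.30) beside TMEM167A (-0.01), FKBP3 (-0.56) beside FANCM (-0.14), and ABHD13 (0.27) beside LIG4 (-0.06).

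**Figure D5:**
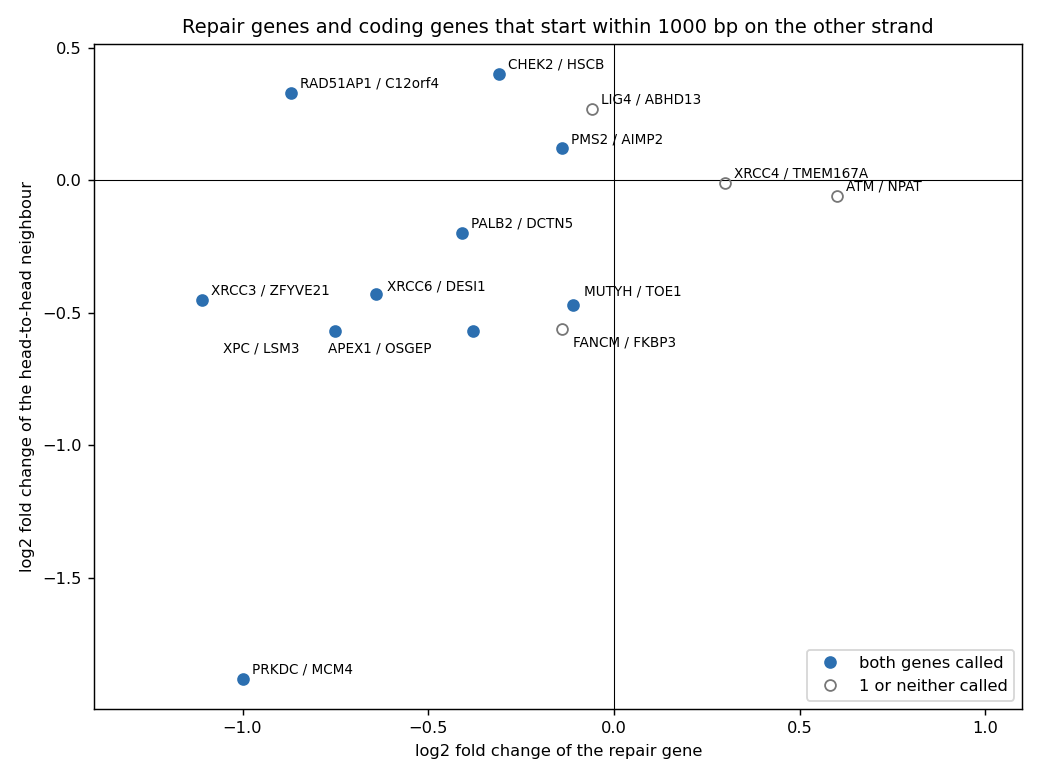
Log2 fold change of the coding neighbour that starts within 1000 bp on the other strand against that of the repair gene, for 14 pairs with both genes tested; filled points have both genes called at an adjusted p under 0.05 (limma). RAD51AP1 and C12orf4 lie on opposite sides of 0, at -0.87 and 0.33, and MCM4, the neighbour of PRKDC, lies lowest at -1.88.

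The directions did not rest on the scaling for most of the repair genes. With scaling to equal sums, the median of ratios and quantile normalization, 44, 39 and 39 of the 54 were lower and 3, 5 and 4 higher, against 51.6%, 41.5% and 40.0% of all genes lower and 27.1%, 36.8% and 38.0% higher. Of the 46 called repair genes 41 kept their direction and call in every one of the 15 alternatives that could test them. The others were WRN, PMS2, MUTYH, ERCC1 and ERCC4, each with its values above.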

How the data were processed

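RNA of 3 control and 3 amiodarone samples was sequenced with a kit that keeps strand, per the labels' protocols. GRCh38.p12 is the build and STAR 2.5.3a, fastp 0.23.4 and featureCounts are tools given by the submitters' processing notes, with no role for each. How strand and multiply matching reads were counted, and with which annotation, is not given in the sources used here. The authors deposited 1 expression value per gene and library. No unit is named per the file headers. Sums over genes of the deposited columns are like those of RPKM, at 534486 to 574483 per library. Whole reads could not be recovered: with the step that suits best, 40.1% to 53.6% of low values of short genes lay within 0.15 of a whole read. Any step would put some values that close, so the low values do not settle the unit.

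Values were used without rescaling. The design allowed for counts or a normalized unit, and the second applied. limma 3.58.1 in R 4.3.3 (lmFit, eBayes with trend; 4 residual and 6.59 prior degrees of freedom, no covariate) was run on log2(value + 1) for the 11445 genes reaching 1 in 3 or more libraries, and tested on simulated data. The simulation changed few genes, so it does not cover data like these, with 78.3% of tested genes called. 26 symbols turned into dates were restored by Entrez ID. Overlaps above 15% of exonic bases are from GENCODE 29. Promoter windows matched 48 of the 54 tested genes. The repair genes and all gene lists were chosen with earlier results of these data known. Library values are given for the 4 tested genes of each group with the largest change and the largest opposite one. Others with library values were added after these were seen. In the further lists genes were named for the 3 smallest adjusted p and 1 in the opposite direction, most without library values. PCNA and MCM4 stand for proliferation, with library values for PCNA only. NPAT, other head-to-head neighbours and overlapping genes were named after their values were seen. A few genes of the lists and 1 further head-to-head pair are not reported here.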

Additional observations from a re-analysis of the deposited data

How the results depend on the processing

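The number of repair genes called lower (42) stayed within 1.5 times under each alternative, from 38 at a minimum value of 5 to 44 with scaling to equal sums. At a minimum value of 5 only 1 was called higher, since fewer genes were tested. The median log2 fold change of -0.44 was -0.53 with log2(value + 0.1), -0.48 with log2(value + 0.5), -0.42 without a filter, -0.59 at a minimum of 5, -0.51 with equal sums, -0.41 with the median of ratios, -0.42 with quantile normalization and -0.47 to -0.42 leaving out 1 library. Mismatch genes called lower were 1 in place of 2 with the median of ratios and quantile normalization and 1 to 2 leaving out 1 library, the call of PMS2 being lost.

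Signs turned in 1 called gene, ERCC1 (0.021 with quantile normalization), and in 5 that were not called. XRCC1 was -0.04 with equal sums. ERCC5 was 0.029 and ATR 0.008 with the median of ratios, and ERCC5 0.078 with quantile normalization. Leaving out 1 library gave RAD54B -0.061 to 0.028 (0.002 without control replicate 1, 0.028 without amiodarone replicate 1), POLB -0.011 to 0.16 (the lowest without amiodarone replicate 3), ERCC5 -0.037 to 0.026 (0.003 without control replicate 2, 0.026 without amiodarone replicate 2) and ATR -0.045 to 0.006 (the highest without control replicate 3). Except where stated, the cause was not tested.

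No pairing of same-numbered samples is stated, and their deviations correlated at -0.155, -0.0182 and -0.0231. For differently numbered samples the range was -0.0966 to 0.114. These values do not settle whether samples were paired. A fit with the replicate number as a block gave 42 lower and 3 higher, ERCC4 being lost, and a median of -0.44. By group the block gave 14 recombination, 8 Fanconi, 2 mismatch, 8 base excision, 5 nucleotide excision, 3 end joining and 2 signalling genes lower. Depth is an estimate only, so the reads behind changes of genes near a value of 1 (RAD54B, FANCM, BRCA2) are not known. On an RPKM-like scale they also depend on gene length.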
